A study of Rattus norvegicus with 10 samples.

Results

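The Sox genes encode transcription factors that share an HMG box, the domain with which they bend DNA. The 7 Sox genes considered here, Sox2, Sox4, Sox5, Sox8, Sox9, Sox10 and Sox11, were looked up by their rat symbol in the name columns of the deposited gene table, and 6 of them were found among the 23487 genes of the count table. Sox4 was not matched and was not analysed here. The remaining genes with a Sox symbol were Sox6, Sox7, Sox12, Sox13, Sox15 and Sox21, which were used only for comparison. The deposited identifiers were ENSRNOG00000012199 for Sox2, ENSRNOG00000027869 for Sox5, ENSRNOG00000018841 for Sox8, ENSRNOG00000002607 for Sox9, ENSRNOG00000011305 for Sox10 and ENSRNOG00000030034 for Sox11.

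RNA was sequenced from primary oligodendrocyte progenitor cells (OPCs) and from oligodendrocytes (OLs) differentiated from such cells, in 10 libraries, 2 for each of 5 groups. All cells came from the cerebral cortex of newborn Sprague-Dawley rat pups, and OPCs were shaken off mixed glial cultures. OLs of 3 groups were collected 5 days after transfection with a synthetic copy (mimic) of miR-145-5p (OL miR-145), with mimics of miR-145-5p and miR-219 together (OL miR-145+miR-219) or with a scrambled mimic (OL miR-ctl). The other groups were OPCs collected 24 h after transfection with an inhibitor of miR-145-5p (OPC anti-miR-145) or a scrambled inhibitor (OPC anti-miR-ctl). Every oligonucleotide was used at 30 nM. OLs had been kept with triiodothyronine and ciliary neurotrophic factor, and OPCs with FGF2 and PDGF-AA. A treatment tag of both OL miR-145 libraries also names miR-219, whereas their titles name miR-145 alone, so they were analysed by title. The study's methods name lentiviral transduction for RNAseq while its sample labels name mimics. The labels number the libraries of a group N1 and N2 without saying what sets them apart. The study's general statement on replication calls each N a biological replicate and, for primary cultures, a culture from a single mouse, with animals of several litters, but does not describe the rat cultures.

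Within oligodendroglia, Sox factors mark successive steps. Sox8, Sox9 and Sox10 form the SoxE group, in which Sox9 is needed to specify the lineage from neural progenitors and is also a nuclear factor of astrocytes, while Sox10 stays on in differentiated cells, where it drives myelin genes together with Myrf, and Sox8 shares part of its work. Sox2 belongs to the SoxB1 group and is known from neural stem cells and OPCs. Sox5 belongs to the SoxD group and competes with SoxE factors, and Sox4 and Sox11 form the SoxC group of early progenitors and immature neurons. A miRNA lowers the RNAs that it binds mainly through its seed, bases 2 to 8. The mature sequence that the mimic copies and the inhibitor targets follows, since the comparisons of mimics and inhibitors rest on it, with the seed in capitals. It is the RefSeq sequence of rat miR-145-5p (GRCr8, chr18:57370033-57370055, minus strand), written 5′ to 3′.

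rno-miR-145-5p: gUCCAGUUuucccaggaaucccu

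The deposited values were estimated counts per gene. Library totals ran from 33505706 to 42684206 counts, and all 6 Sox genes reached the minimum for testing, 5 counts in 2 of a comparison's 4 libraries, in all 5 comparisons. Raw counts per library ran from 15059 to 26654 for Sox10, from 8905 to 14682 for Sox2, from 2896 to 12009 for Sox8, from 509 to 3626 for Sox9, from 290 to 5773 for Sox11 and from 148 to 653 for Sox5. Levels are given as CPM, counts scaled to library size with TMM normalization over the 10 libraries, and are compared between groups within a gene, not between genes, because they are not divided by transcript length. The labelled cell types were checked against marker lists. The 10 OL markers (Mbp, Mag and others) summed to between 15764 and 34752 CPM in OL libraries and to between 1074 and 1256 CPM in OPC libraries. The 5 progenitor markers found (Pdgfra, Cspg4, Ptprz1, Gpr17 and Cspg5) summed to between 3815 and 4836 CPM in OPC libraries. They summed to between 1408 and 2093 CPM in OL libraries, which thus still held progenitor RNA. Gpr17 was higher in OL miR-ctl than in OPC anti-miR-ctl, at means of 320 and 23.8 CPM, and the others were lower. OL cultures also held RNA of astrocyte genes, with sums over 8 markers from 5353 to 13059 CPM against 399 to 664 CPM in OPCs, and both kinds of culture held microglial RNA, from 311 to 876 CPM in OLs and from 804 to 991 CPM in OPCs. No marker found of these lists was at 0 in both libraries of a group. In such bulk samples, fewer cells of a type and less RNA per cell cannot be told apart.

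All 6 Sox genes were called (adjusted p under 0.05, edgeR) between control OLs and control OPCs, as were 57.5% of all genes tested. Sox2 and the SoxE genes Sox8, Sox9 and Sox10 were higher in OLs, and Sox5 and Sox11 were lower, with folds from 1.46 to 3.21 for the former and levels of 0.383 and 0.189 times those of OPCs for the latter. With the inhibitor of miR-145 in OPCs, where 28.1% of all genes were called, Sox8, Sox9, Sox10 and Sox11 rose. Sox9 rose most of all, 5.52-fold. With the miR-145 mimic in OLs, edgeR called no Sox gene and 0% of all genes, of which 47.3% had groups that did not overlap. DESeq2 called Sox9 and Sox10. Both miR-145 libraries lay above both control libraries for Sox9 and below them for Sox2, Sox8 and Sox10. The plot of levels by library shows these values, and the plot of log2 fold changes sets the 5 comparisons side by side.

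**Figure D1:**
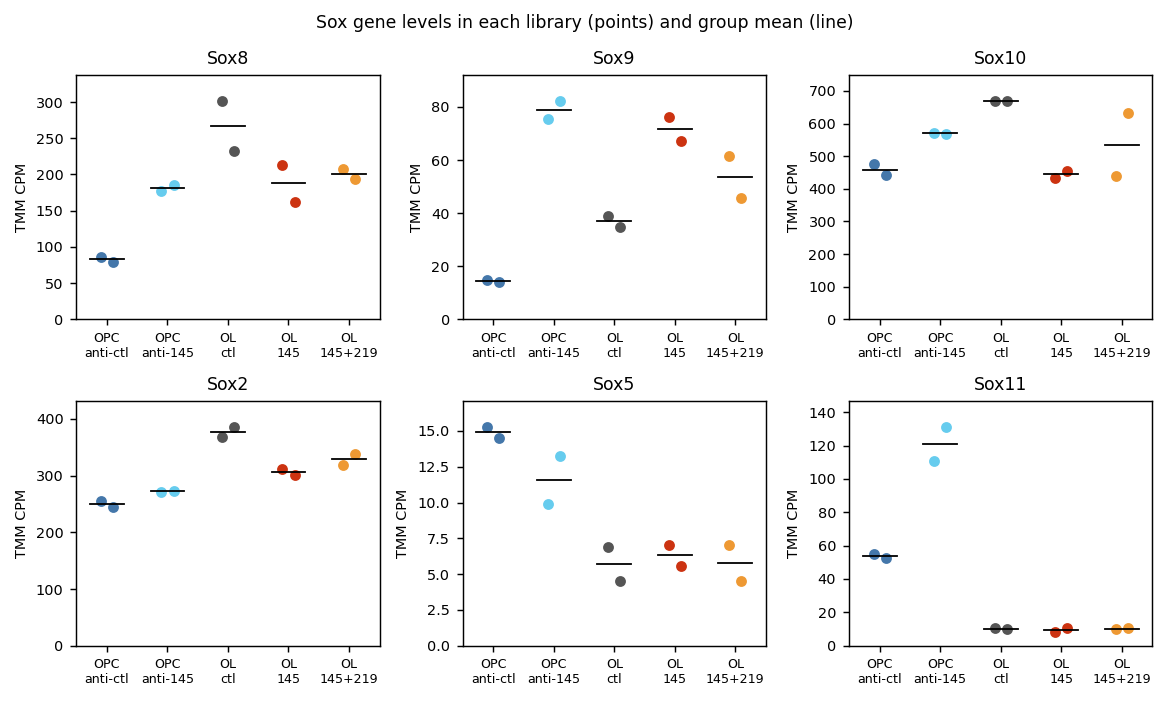
Level of each Sox gene (y axis, TMM CPM, starting at 0) in each of the 10 libraries (points) by group (x axis), with the mean of the 2 libraries as a line. Sox9 sits at 14.9 and 13.9 CPM in OPC anti-miR-ctl and between 75.3 and 82.3 CPM in OPC anti-miR-145, and Sox11 is at or below 10.9 CPM in every OL library.

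**Figure D2:**
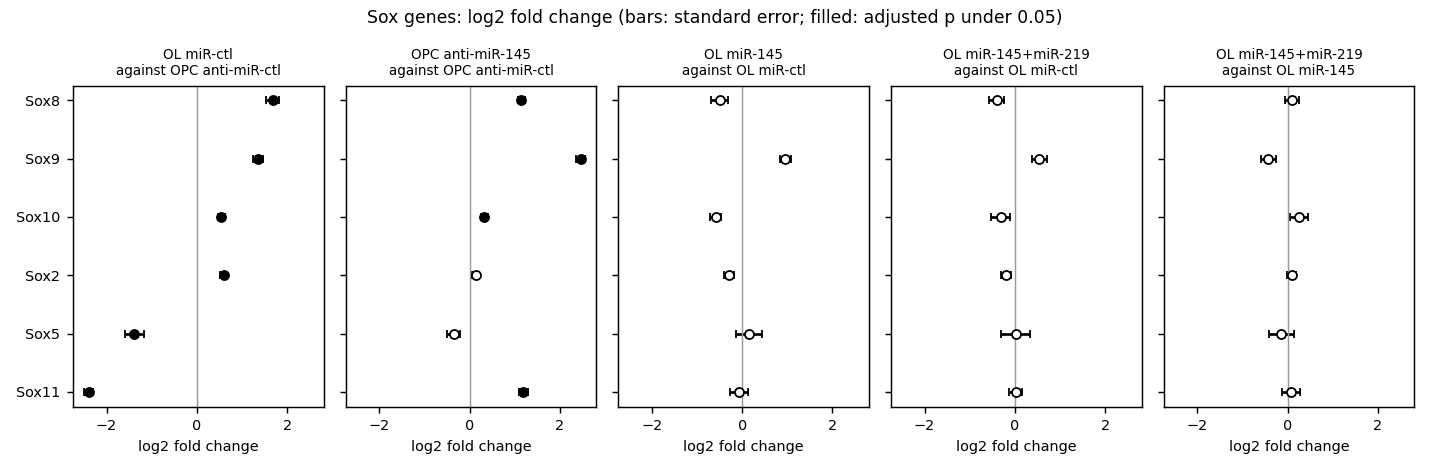
Log2 fold change of each Sox gene (x axis) in the 5 comparisons (panels), with the standard error as bars and filled points for an adjusted p under 0.05 (edgeR). The points of all 6 genes are filled for control OLs against control OPCs, those of 4 genes for the inhibitor in OPCs, and none for the 3 comparisons of mimics.

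Control OLs were compared with control OPCs to give the level of each gene before and after differentiation. Stage, culture supplements, time after transfection and the kind of control oligonucleotide differ together here and cannot be told apart. Of 15721 genes tested, 57.5% were called in either direction, 28.8% higher and 28.7% lower in OLs, and 81.7% had groups that did not overlap. All 6 Sox genes were called, 4 higher and 2 lower, and their groups did not overlap. So high a share of all genes was called that a call says little by itself, and the sizes follow.

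Sox8 was at 86.4 and 79.4 CPM in the control OPC libraries and at 302 and 232 CPM in the control OL libraries. Both OL libraries were well above both OPC libraries, although they differed from each other by more than the OPC libraries did. With SE for the standard error, the log2 fold change was 1.68 (SE 0.143, adjusted p = 0.000534, edgeR), the largest rise among the 6 genes. Sox9 was at 14.9 and 13.9 CPM in OPCs and at 39.1 and 34.9 CPM in OLs, with a log2 fold change of 1.35 (SE 0.105, adjusted p = 0.000392, edgeR). Sox10 stood at 476 and 441 CPM in OPCs and at 669.7 and 669 CPM in OLs. The third SoxE gene thus rose least, by a log2 fold change of 0.54 (SE 0.0799, adjusted p = 0.00344, edgeR), and without replicate 2 of OPC anti-miR-ctl its adjusted p was 0.0700.

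Sox2 moved with the SoxE genes. It was at 255 and 244 CPM in control OPCs and at 369 and 386 CPM in control OLs, a log2 fold change of 0.59 (SE 0.0768, adjusted p = 0.00221, edgeR). The libraries of the 5 groups did not overlap with those of the next group for this gene, in the order OPC anti-miR-ctl, OPC anti-miR-145, OL miR-145, OL miR-145+miR-219 and OL miR-ctl. All OL groups were above both OPC groups.

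Sox5 and Sox11 went the other way. Sox5 was at 15.3 and 14.5 CPM in OPC anti-miR-ctl and at 6.86 and 4.54 CPM in OL miR-ctl, a log2 fold change of -1.38 (SE 0.215, adjusted p = 0.00410, edgeR). Sox11 was at 54.8 and 52.5 CPM in the former and at 10.6 and 9.80 CPM in the latter. It had the largest change of the 6 genes, with a log2 fold change of -2.40 (SE 0.0936, adjusted p = 6.3e-05, edgeR). Neither gene separated the 3 OL groups, whose libraries overlapped from one group to the next, with Sox5 between 4.52 and 7.04 CPM and Sox11 between 8.37 and 10.9 CPM over the 6 OL libraries. The 6 neuronal markers found summed to 864 and 810 CPM in OPC anti-miR-ctl and to 555 and 414 CPM in OL miR-ctl. Of these markers, 4 were called lower and 1 higher by edgeR, beside 28.7% and 28.8% of all genes. Their median log2 fold change was -1.20. The part of neurons in the Sox11 change between stages was not tested.

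Among the other genes with a Sox symbol, Sox13, Sox7 and Sox21 were called higher in control OLs, with log2 fold changes of 1.28, 1.79 and 2.33. Sox7 and Sox21 were at low levels, with means of 0.217 and 0.656 CPM in OPCs and 0.755 and 3.34 CPM in OLs. The Sox21 entry is annotated as a pseudogene. Sox12 was not called, at -0.45 (edgeR adjusted p of 0.0520), and neither was Sox15, at means of 0.178 CPM in OPCs and 0.0251 CPM in OLs. Sox6, a SoxD gene studied as a target of miR-219, was at 153 ± 17.4 CPM in OPC anti-miR-ctl and 130 ± 45.9 CPM in OL miR-ctl (SD, n = 2 each), and its log2 fold change was -0.23 (edgeR adjusted p of 0.453). Sox5, the SoxD gene of the 6, therefore differed between stages while Sox6 was not called, but the difference between these fold changes was not tested.

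The promoters of Sox2 and Sox11 are shown because these genes changed in opposite directions between stages, and because they are the members with an entry in the RefSeq promoter table (GRCr8, 250 bases before to 50 bases after the gene's start). The Sox2 promoter is at chr2:119464881-119465180 on the plus strand and the Sox11 promoter at chr6:49738745-49739044 on the minus strand. Capitals mark ATTGG, which reads CCAAT on the opposite strand, the only one of the 3 motifs searched that was found in them.

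Sox2 promoter: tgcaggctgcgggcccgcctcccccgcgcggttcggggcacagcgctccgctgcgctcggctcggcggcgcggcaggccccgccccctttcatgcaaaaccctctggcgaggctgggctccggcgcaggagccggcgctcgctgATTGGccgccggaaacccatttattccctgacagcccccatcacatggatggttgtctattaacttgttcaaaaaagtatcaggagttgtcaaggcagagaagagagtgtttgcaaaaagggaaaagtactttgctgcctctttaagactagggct

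Sox11 promoter: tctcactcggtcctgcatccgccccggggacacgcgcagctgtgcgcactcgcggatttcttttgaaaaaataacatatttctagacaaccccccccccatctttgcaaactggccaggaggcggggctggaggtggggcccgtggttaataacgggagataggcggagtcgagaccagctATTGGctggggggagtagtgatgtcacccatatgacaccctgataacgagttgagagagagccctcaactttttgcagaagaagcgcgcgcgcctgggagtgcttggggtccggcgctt

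The motifs searched on both strands were ACAAT and ACAAAG, core letters that Sox HMG boxes bind, and CCAAT, which binds NF-Y and was added after the sequences had been read. ACAAT and CCAAT share the letters CAAT, so no CAAT can count for both. The CCAAT match began 106 bases before the start of Sox2 and 69 bases before that of Sox11. Over all 33469 promoters of the table, 37.5% held CCAAT and 44.9% held ACAAT or ACAAAG, so a match is frequent. GC made up 60.7% of the Sox2 promoter and 58.0% of the Sox11 promoter, against a median of 51.7% over all promoters.

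In OPCs, the inhibitor was used to ask what follows a loss of miR-145. Of 15496 genes tested, 28.1% were called in either direction, 12.1% were called higher, and 67.8% had groups that did not overlap. Of the 6 Sox genes, 4 were called higher and none lower by edgeR, 5 had an unadjusted p under 0.05, and all 6 had groups that did not overlap, 5 higher and 1 lower. The median log2 fold change of the 6 genes was 0.74, and that of all genes was 0.00.

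Sox9 was at 14.9 and 13.9 CPM in the anti-miR-ctl libraries and at 75.3 and 82.3 CPM in the anti-miR-145 libraries. Of the 6 OL libraries, replicate 1 of OL miR-145, at 76.1 CPM, lay between them and the others lay below both. The log2 fold change was 2.46 (SE 0.0939, adjusted p = 2.7e-05, edgeR). It was between 2.40 and 2.51 with each library left out in turn.

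Sox8 was at 86.4 and 79.4 CPM with the scrambled inhibitor and at 177 and 186 CPM with the inhibitor of miR-145. Its log2 fold change of 1.15 (SE 0.0826, adjusted p = 0.000149, edgeR) brought it to levels that overlapped with OL miR-145. Sox10 was at 476 and 441 CPM in the former and at 572 and 568 CPM in the latter. The rise of Sox10 was small, with a log2 fold change of 0.33 (SE 0.0820, adjusted p = 0.0252, edgeR), and its call was lost when a term for the replicate number was added (edgeR adjusted p of 0.0817), when all 5 groups were fitted together (0.163) and without replicate 1 or 2 of anti-miR-ctl (0.164 and 0.336). The increase thus ran over all 3 SoxE genes, in unequal size.

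Sox11 was at 54.8 and 52.5 CPM in OPC anti-miR-ctl and at 111 and 131 CPM in OPC anti-miR-145. The log2 fold change was 1.19 (SE 0.0982, adjusted p = 0.000248, edgeR). OPC anti-miR-145 was thus the group with the highest Sox11 of the 5, whereas OLs had the lowest. Sox8, Sox9 and Sox10, in contrast, were higher both in inhibitor-treated OPCs and in control OLs than in control OPCs. So was Sox2, which was not called with the inhibitor. These comparisons share the OPC anti-miR-ctl libraries. Sox11 is also known from immature neurons. The 6 neuronal markers found summed to 864 and 810 CPM in OPC anti-miR-ctl and to 731 and 945 CPM in OPC anti-miR-145. These sums overlapped, while 2 of the 6 were called higher and none lower by edgeR (4 had an unadjusted p under 0.05). Of all genes, 12.1% were called higher. The part of such cells in the Sox11 level was not tested.

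Sox2 was at 255 and 244 CPM with the scrambled inhibitor and at 272 and 273 CPM with the inhibitor of miR-145. The libraries did not overlap, but the log2 fold change of 0.14 (SE 0.0775) did not pass the test (edgeR adjusted p of 0.217). Sox5 was at 15.3 and 14.5 CPM in the former and at 9.93 and 13.2 CPM in the latter. It was the only one of the 6 genes with both inhibitor libraries below both controls, at a log2 fold change of -0.35 (SE 0.144, adjusted p = 0.115, edgeR). Without replicate 2 of anti-miR-145 its adjusted p was 0.00185 (edgeR), but that fit leaves 1 library in the arm, takes the spread from the 2 controls alone and calls 7130 of all genes against 4348.

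Of the 6 other genes with a Sox symbol, Sox13 was called lower in anti-miR-145 OPCs, with a log2 fold change of -0.39 (edgeR adjusted p of 0.0310). Sox12, the SoxC relative of Sox11, had means of 38.6 CPM in the controls and 48.1 CPM with the inhibitor, and did not pass the test, at a log2 fold change of 0.33 (edgeR adjusted p of 0.0639). Sox6 was at 187 ± 55.8 CPM (SD, n = 2) with the inhibitor and was not called, with a log2 fold change of 0.30 (edgeR adjusted p of 0.260).

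In OLs, the mimic was used to ask what added miR-145 does to differentiation. Of 15461 genes tested, 0% were called by edgeR, 13.4% had an unadjusted p under 0.05 and 47.3% had groups that did not overlap. None of the 6 Sox genes was called, 4 had an unadjusted p under 0.05, and 4 had groups that did not overlap, 1 higher and 3 lower. DESeq2 called 649 genes, Sox9 and Sox10 among them. The median log2 fold change was -0.18 over the 6 genes and -0.01 over all genes.

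Sox9 was at 39.1 and 34.9 CPM in the OL miR-ctl libraries and at 76.1 and 67.0 CPM in the OL miR-145 libraries. Both miR-145 libraries were above both controls, a 1.94-fold difference with a log2 fold change of 0.96 (SE 0.126, unadjusted p of 0.000427). Its edgeR adjusted p was 0.158, the smallest value of the comparison. The adjustment can give the same value to genes of different unadjusted p, so this does not place Sox9 first among them. The adjusted p was 1.03e-05 with DESeq2, 0.0497 with all 5 groups in a single edgeR fit and 3.92e-10 with a term for the replicate number. These settings called 649, 79 and 2272 of all genes, against 0 in the main fit, and the labels do not say what a replicate number shares.

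Sox10 was at 669.7 and 669 CPM in OL miR-ctl and at 434 and 454 CPM in OL miR-145. Both miR-145 libraries were below both controls and overlapped with those of control OPCs. The log2 fold change was -0.59 (SE 0.118, unadjusted p of 0.00330, adjusted p = 0.167, edgeR), and the adjusted p was 0.000854 with DESeq2 and 0.000116 with a term for the replicate number. Sox8 was at 302 and 232 CPM in the controls and at 213 and 162 CPM with miR-145. Replicate 1 was the higher library of each group, and the gap between the groups was smaller than that between the libraries of a group. The log2 fold change of Sox8 was -0.50 (SE 0.194, unadjusted p of 0.0448, adjusted p = 0.361, edgeR), and its adjusted p was 0.00121 with a term for the replicate number.

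Sox2 was at 369 and 386 CPM in OL miR-ctl and at 312 and 302 CPM in OL miR-145. Its log2 fold change of -0.29 (SE 0.112, adjusted p = 0.358, edgeR) left it above both OPC groups. Sox5 had a log2 fold change of 0.15 (SE 0.280, adjusted p = 0.852, edgeR) and Sox11 one of -0.08 (SE 0.200, adjusted p = 0.899, edgeR), and the libraries of both overlapped between groups. Among the other genes with a Sox symbol, 5 were tested and none was called by edgeR. Sox13 was at -0.65 (unadjusted p of 0.0405, edgeR adjusted p of 0.352), and Sox6 at -0.48 (edgeR adjusted p of 0.451).

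With both mimics, 0% of 15436 genes were called against OL miR-ctl by edgeR, 6.19% had an unadjusted p under 0.05 and 36.7% had groups that did not overlap. Sox9 was at 61.5 and 45.9 CPM with miR-145 and miR-219, above both control libraries. The log2 fold change was 0.54 (SE 0.171, unadjusted p of 0.0252, adjusted p = 0.800, edgeR). Sox9 was the only one of the 6 genes with an unadjusted p under 0.05, and DESeq2 called none of them.

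Sox10 was at 439 and 632 CPM in the libraries with both mimics. One library was thus close to those of OL miR-145 and the other close to the controls, and the log2 fold change of -0.32 had a standard error of 0.202 (edgeR adjusted p of 0.832). Sox8, at 208 and 194 CPM, and Sox2, at 319.6 and 338 CPM, were also below both controls, with log2 fold changes of -0.41 (SE 0.160, adjusted p = 0.801, edgeR) and -0.19 (SE 0.108, adjusted p = 0.822, edgeR). Sox5, at 7.02 and 4.52 CPM, and Sox11, at 9.86 and 10.7 CPM, overlapped with the controls and had log2 fold changes of 0.02 each.

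Both mimics were compared with miR-145 alone to ask what miR-219 adds. This comparison shares its libraries with the preceding comparisons of mimics. Of 15501 genes, 0% were called by edgeR, 228 had an unadjusted p under 0.05 and 24.8% had groups that did not overlap. No Sox gene was called or had an unadjusted p under 0.05, and DESeq2 called none of them. Sox9 was lower in both libraries with miR-219, at 61.5 and 45.9 CPM against 76.1 and 67.0 CPM, with a log2 fold change of -0.42 (SE 0.170, unadjusted p of 0.0568, adjusted p = 1.00, edgeR), and with a term for the replicate number its adjusted p was 0.0492. Sox2 was slightly higher in both, with a log2 fold change of 0.09 (SE 0.105). The libraries of Sox5, Sox8, Sox10 and Sox11 overlapped, with log2 fold changes of -0.14, 0.09, 0.26 and 0.08.

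Because Sox9 lay above and Sox10 below the controls in OL miR-145, and both rose by unequal amounts in OPCs, the ratio of their counts was taken within each library, where normalization cancels. It can be read between groups but not as a ratio of molecules. The ratio of Sox10 to Sox9 counts was 32.0 and 31.6 in OPC anti-miR-ctl and 7.60 and 6.90 in OPC anti-miR-145. It was 17.1 and 19.2 in OL miR-ctl, 5.71 and 6.77 in OL miR-145, and 7.14 and 13.8 in OL miR-145+miR-219. The libraries given a mimic or inhibitor of miR-145 were thus all below the control libraries of their own stage, at both stages. This restates the levels of Sox9 and Sox10 given above, for which the ratio was chosen, and is not a separate result. For Sox8 to Sox9 the ratio was 5.80 and 5.69 in OPC anti-miR-ctl against 2.36 and 2.26 in OPC anti-miR-145, and 7.72 and 6.67 in OL miR-ctl against 2.80 and 2.42 in OL miR-145 and 3.39 and 4.23 with both mimics.

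Sox9 is also expressed by astrocytes, and astrocyte markers were at higher levels beside it in OLs. The 8 markers summed to 6352 and 5353 CPM in OL miR-ctl, to 13059 and 8852 CPM in OL miR-145 and to 10812 and 6371 CPM with both mimics. Gfap, their most abundant member, was at 4799 and 4179 CPM in OL miR-ctl, at 9708 and 6709 CPM in OL miR-145 and at 7754 and 4860 CPM with both mimics. For 7 of the 8 markers, the OL miR-145 libraries were above the controls without overlap, with a median log2 fold change of 0.87, and none was called by edgeR (6 had an unadjusted p under 0.05). Over all genes of this comparison, 47.3% had groups that did not overlap and 13.4% had an unadjusted p under 0.05. The 6 fibroblast and mural markers found, at lower levels, summed to 30.7 and 21.0 CPM in OL miR-ctl, to 50.7 and 85.3 CPM in OL miR-145 and to 59.4 and 47.1 CPM with both mimics. The part of either cell type in the Sox9 levels of OLs was not tested. In OPCs the 8 astrocyte markers summed to 664 and 625 CPM in anti-miR-ctl and to 399 and 443 CPM in anti-miR-145. Most of that sum was Slc1a3, at means of 390 and 185 CPM, and Aldoc, at means of 217 and 175 CPM. The part of astrocytes in the Sox9 levels of OPCs was not tested. Gfap itself was called higher there, from 8.23 and 7.81 CPM to 40.7 and 51.1 CPM, while Slc1a2, Slc1a3 and Aldoc were called lower. Of 9 microglial markers, 5 were called higher and 3 lower in anti-miR-145 OPCs, where 28.1% of all genes were called and 12.1% were called higher. Their median log2 fold change was 1.03, and their sums were 991 and 804 CPM against 884 and 828 CPM in anti-miR-ctl. In OLs the microglial sums were 332 and 876 CPM in OL miR-145, 353 and 532 CPM in OL miR-ctl and 311 and 575 CPM with both mimics, with replicate 2 the higher library each time. The part of microglia in the Sox changes was not tested. Between control OPCs and control OLs, where Sox9 rose 2.56-fold, 7 of the 8 astrocyte markers were called higher, beside 28.8% of all genes. The median log2 fold change of the 8 was 3.01.

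**Figure D3:**
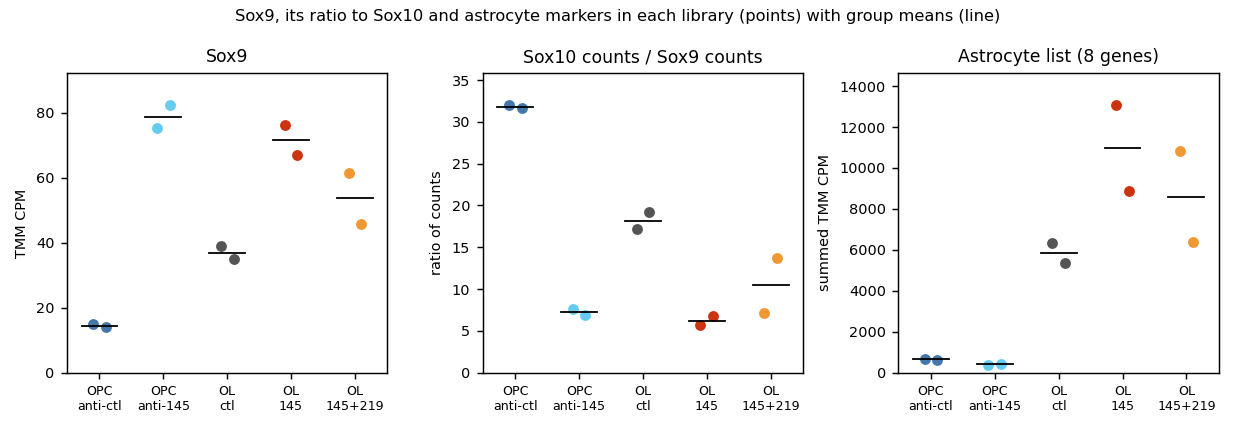
Sox9 level in TMM CPM (left), the ratio of Sox10 to Sox9 counts (middle) and the summed TMM CPM of 8 astrocyte markers (right) in each library (points) by group, with group means as lines and y axes from 0. The ratio is at or above 31.6 in OPC anti-miR-ctl and at or below 7.60 in OPC anti-miR-145. In OPCs the marker sum is mostly Slc1a3 and Aldoc, and it is lower in OPC anti-miR-145.

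SoxE factors act on known regulatory regions of glial genes, so 12 such genes were followed. In control OLs against control OPCs, 9 of the 12 were called higher and 2 lower, beside 28.8% and 28.7% of all genes, and their median log2 fold change was 3.05, beside 0.01 over all genes. The myelin genes Mag, Mbp and Cnp had log2 fold changes of 6.66, 5.18 and 2.35, the myelin regulator Myrf one of 2.94, and the phosphatase gene Dusp15 one of 3.38. Pdgfra, the PDGF receptor of OPCs, was called lower, with a log2 fold change of -2.02. These are the genes that define the stages, and Sox2, Sox8, Sox9 and Sox10 were higher in the same libraries.

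With the inhibitor of miR-145 in OPCs, where Sox8, Sox9 and Sox10 rose, 3 of the 12 genes were called higher and 3 lower, 6 of 12 where 28.1% of all genes were called, and the median log2 fold change was -0.19. Myrf fell from a mean of 81.5 to 34.1 CPM, a log2 fold change of -1.24 (SE 0.0979, adjusted p = 0.000203, edgeR), and Dusp15 fell from 24.1 to 11.1 CPM, a log2 fold change of -1.11 (SE 0.0970, adjusted p = 0.000305, edgeR). Nfatc2, which encodes a calcium-regulated partner of Sox10, was called lower at -0.87. Pdgfra was called higher at 0.61, and Mag and the neuregulin receptor Erbb3 were called higher at 0.38 each. Mbp was not called, at -0.15. The 3 SoxE genes and Myrf thus changed in opposite directions in these libraries.

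With the miR-145 mimic in OLs, none of the 12 genes was called by edgeR, 1 had an unadjusted p under 0.05 and 4 lay below the controls in both miR-145 libraries, and their median log2 fold change was -0.24. Neither count exceeds the share over all genes, of which 13.4% had an unadjusted p under 0.05 and 47.3% had groups that did not overlap. Dusp15 had the smallest p of the 12, with means of 162 against 251 CPM and a log2 fold change of -0.62 (unadjusted p of 0.00349, edgeR adjusted p of 0.170). Myrf was at -0.36 (edgeR adjusted p of 0.492) and Mbp at -0.19 (edgeR adjusted p of 0.880). The libraries of a group differed widely for Mbp, at 6224 and 13143 CPM in OL miR-ctl and 6236 and 10665 CPM in OL miR-145. Myrf was at 575 and 678 CPM in the former and at 405 and 569 CPM in the latter. Replicate 2 was the higher library of each group for both genes. With such spread, these adjusted p values do not show that the levels were unchanged. With both mimics none of the 12 was called and the median was 0.00.

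The Dusp15 promoter is shown because Dusp15 was called between stages and with the inhibitor, and because it holds a Sox motif. It lies at chr3:161879201-161879500 of GRCr8 on the minus strand, and capitals mark CTTTGT, which reads ACAAAG on the opposite strand and begins 92 bases before the gene's start.

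Dusp15 promoter: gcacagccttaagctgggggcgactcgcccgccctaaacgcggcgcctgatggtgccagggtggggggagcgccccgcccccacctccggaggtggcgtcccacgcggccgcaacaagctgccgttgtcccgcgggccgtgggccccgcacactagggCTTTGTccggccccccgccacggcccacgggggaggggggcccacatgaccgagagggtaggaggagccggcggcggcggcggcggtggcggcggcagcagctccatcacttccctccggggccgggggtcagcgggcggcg

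Of the 9 promoters matched to the 12 genes, 2 of them of Mbp, 5 held ACAAAG, 3 held ACAAT and 6 held at least 1 of these motifs. Over all promoters 18.8% held ACAAAG, 33.7% held ACAAT and 44.9% held at least 1 of them. Mag and Cnp each held a single ACAAAG and Opalin held ACAAAG at 2 places. The promoters of Pdgfra and Nfatc2, the genes called lower in OLs, held neither motif. Neither did 1 of the 2 promoters of Mbp, which was higher in OLs. These letters describe the windows and do not show binding.

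Partners and cofactors of Sox factors were called in both directions. Of 17 such genes, 4 were called higher and 7 lower in control OLs against control OPCs, with a median log2 fold change of -0.30, and 57.5% of all genes were called, so the share among partners was near that of all genes. Tcf7l2, a Wnt effector, and Nkx2-2, a homeodomain regulator of differentiation, rose by 2.07 and 1.24 on the log2 scale, and Zeb2 and Tcf4 by 0.72 and 0.49. Pou3f1, a POU factor that partners Sox proteins, had a log2 fold change of -4.35, the largest change of the list. Olig1 and Olig2, the bHLH factors of the lineage, were called lower at -1.33 and -0.38, and the nuclear factor Nfib was called lower at -1.38.

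With the inhibitor in OPCs, 4 partners were called higher and 3 lower, 7 of 17 where 28.1% of all genes were called, and the median log2 fold change was 0.05. Olig1, Olig2 and Nkx2-2 rose together with the SoxE genes, at log2 fold changes of 0.65, 0.55 and 0.86, and so did the chromatin remodeller Smarca4 at 0.41. Hes5, a Notch effector that restrains Sox10, fell by 1.76 on the log2 scale from a mean of 1.42 to 0.412 CPM, a low level. Zeb2 fell by 0.65, and Nfia, which antagonizes Sox10 and works with Sox9 in astrocytes, fell by 0.49. With the miR-145 mimic in OLs, none of the 17 was called by edgeR and 3 had an unadjusted p under 0.05. Those were Tcf7l2, Nkx2-2 and Olig2, which were below the controls in both miR-145 libraries, as 8 of the 17 were, at log2 fold changes of -0.56, -0.83 and -0.37. Another 2 of the 17 lay above the controls without overlap, and 47.3% of all genes had groups that did not overlap. The plot of targets and partners shows 11 of the 12 targets and all 17 partners.

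**Figure D4:**
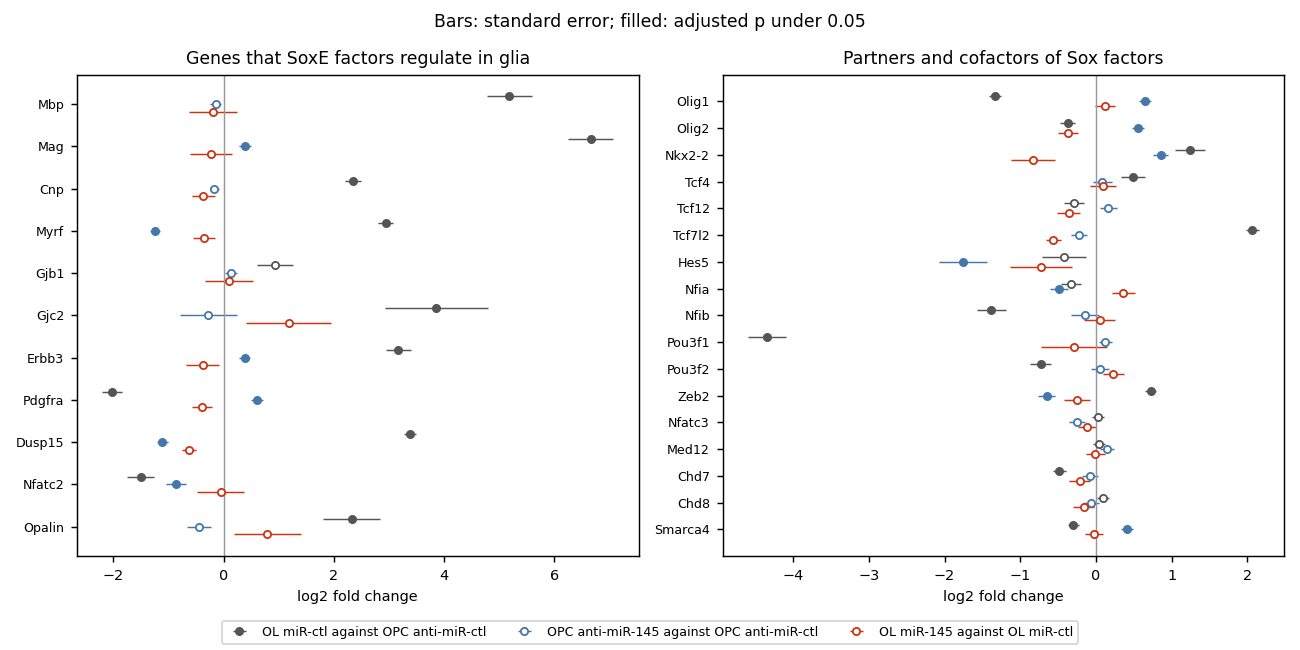
Log2 fold change (x axis) of 11 genes regulated by SoxE factors (left) and 17 partners and cofactors (right) in 3 comparisons, with the standard error as bars and filled points for an adjusted p under 0.05 (edgeR). Myrf lies at 2.94 for control OLs against control OPCs and at -1.24 for the inhibitor in OPCs, and every point of OL miR-145 is open.

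The 6 Sox genes were last compared with each other and with 10401 genes of at least 5 CPM on average, by Pearson correlation of log2(CPM + 1) over the 10 libraries. The libraries share groups and stage, so these values describe the pattern over groups. Sox2 was closest to Sox8 among the Sox genes (r = 0.84) and opposite to Sox5 (r = -0.87), and Sox5 went with Sox11 (r = 0.83). Sox8 and Sox9 had an r of 0.69, whereas Sox9 and Sox10 had one of 0.09. The 3 genes with the pattern most like Sox9 were Tpst1, Ogdhl and Limk2, with r from 0.963 to 0.974. Those most like Sox8 were Mfsd2a, a lipid transporter, Arl4a and Cadm3, a cell adhesion molecule, with r from 0.980 to 0.984. Those most like Sox10 were Igf2bp2, an RNA-binding protein (r = 0.947), Fiz1 (r = 0.902) and Prkar1a, a regulatory subunit of protein kinase A (r = 0.899), so its pattern was shared less closely. Plaa, Sppl3 and Nrbf2 were closest to Sox2, with r from 0.987 to 0.990, and Trim67, Gpr161 and Bmt2 to Sox5, with r from 0.993 to 0.995. The neuropeptide gene Calca, the phosphatase gene Ptpn5 and Trim46 were closest to Sox11, with r from 0.994 to 0.996.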

How the data were processed

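RNA of 10 libraries of rat OPCs and OLs was analysed, 2 per group, grouped by their titles. Reads were quantified by the authors against the GENCODE rat transcriptome (Salmon 0.12.0) with Rnor6 as the stated build, and the deposited values are unnormalized estimated counts summed per gene. The submitters' processing notes also name DESeq2. Between 16.0% and 17.5% of a library's values were not whole, and counts were rounded. The authors' deposited table of OL miR-145 against OL miR-ctl holds fold changes and p-values of their comparison, which were not used. Only its gene symbols were taken, 14561 over 16129 rows, of which 266 lie on more than 1 gene ID, none of them a Sox gene or a listed gene. For each of the 5 comparisons, its 4 libraries alone were fitted by edgeR 4.0.16 in R 4.3.3 (TMM, glmQLFit and glmQLFTest, 5 counts or more in 2 libraries, Benjamini-Hochberg adjustment over all genes tested, calls under 0.05, two-sided). The standard error is the log2 fold change divided by the square root of F. Alternatives were DESeq2 1.42.0, its size factors, no filter or at least 50 counts, all 5 groups in 1 fit, a replicate block, and leaving out each library. The functions were tested on simulated data. Named genes are the Sox genes, 2 lists of targets and partners, and the 3 genes of most similar pattern per Sox gene. These members and lists were chosen with earlier results of these data known. Promoters and the miRNA come from RefSeq (GRCr8). Binding sites of miR-145-5p were not analysed here, and 1 target gene is counted in its lists but not reported here by itself. Python 3.11.15 with pandas 2.3.3 and matplotlib 3.10.9 was used for sequences and plots.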

Additional observations from a re-analysis of the deposited data

How the results depend on the processing

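Having 2 libraries per group limits every comparison, and counting error is largest for Sox5 and Sox11 in OLs, the genes of lowest counts. Over 30 fold changes of Sox genes and 300 values under alternatives, 275 kept their direction and their side of the threshold, 5 lost and 8 gained a call, and 12 changed sign, all with 1 library left out and none of them called. The cause was not tested.

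Sox genes called in OL miR-145 against OL miR-ctl numbered 0 with edgeR, 2 with DESeq2, 1 with all 5 groups in 1 fit and 3 with the replicate block, and 0 with any library left out. Over all genes these settings gave 0, 649, 79 and 2272. For both mimics against OL miR-ctl, DESeq2 called 106 genes, the fit with no filter 1 and the replicate block 132, none of them a Sox gene. Against miR-145 alone, DESeq2 called 9 genes and the replicate block 184, with 1 Sox gene, Sox9. In OPCs, 4348 genes were called, 2657 with all 5 groups in 1 fit, 3963 with the replicate block and between 2424 and 7130 with 1 library left out (2424 and 2530 without replicate 1 and 2 of anti-miR-ctl, 7130 without replicate 2 of anti-miR-145). Between control stages, 9042 genes were called, and between 5016 and 10591 with 1 library left out (5071 and 5016 without replicate 1 and 2 of OPC anti-miR-ctl). Sox genes called numbered 3 to 5 in OPCs and 5 to 6 between stages with 1 library left out.

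Same-numbered libraries deviated together at r = 0.396, 0.457 and 0.622 in the 3 comparisons of mimics, at -0.14 in OPCs and at 0.0646 between stages, over 16339 genes. Nothing in the labels says what a number shares, so the block remained an alternative. The crossed pairing in OPCs, added after the data were seen, gave 5536 genes and 5 Sox genes.

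With 1 library left out, log2 fold changes ran for OL miR-145 against OL miR-ctl from -0.12 to 0.48 for Sox5 and from -0.28 to 0.10 for Sox11, for both mimics against OL miR-ctl from -0.33 to 0.35 for Sox5 and from -0.054 to 0.081 for Sox11, and for both mimics against miR-145 from -0.49 to 0.14 for Sox5, from -0.10 to 0.30 for Sox11, from -0.082 to 0.29 for Sox8 and from -0.031 to 0.50 for Sox10. Without a change of sign, they moved by over 1.5 times from -0.50 to between -0.71 and -0.30 for Sox8 with miR-145, and with both mimics against OL miR-ctl from -0.32 to between -0.62 and -0.07 for Sox10, from -0.41 to between -0.59 and -0.20 for Sox8 and from 0.54 to between 0.32 and 0.72 for Sox9. Against miR-145 alone, Sox9 moved from -0.42 to between -0.65 and -0.23 and Sox2 from 0.09 to between 0.05 and 0.14, and in OPCs Sox5 moved from -0.35 to between -0.56 and -0.17 and Sox2 from 0.14 to between 0.09 and 0.15. A fit that leaves 1 library in an arm assumes that it varies like the other group. Levels moved by ratios of 0.994 to 1.00 with DESeq2's size factors and of 0.965 to 1.07 as plain CPM.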
